A study of Mus musculus with 10 samples.

Results

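Neuropeptide Y and its receptors Npy1r, Npy2r and Npy5r were examined in the hypothalamus of mice bearing C26, a colon adenocarcinoma line that is transplanted into mice to model the wasting of cancer cachexia. A gene was taken where a probe set of the Affymetrix whole-transcript array was paired with its symbol and no other, and the brightest such probe set stood for a gene. All 4 members were found, each with 1 probe set, among 18820 genes measured in this way. Male CDF1 mice, a cross of BALB/c and DBA/2, were 10 to 11 weeks old. Tumour-bearing mice had received 1000000 C26 cells under the skin of the flank in 0.2 ml of buffered salt solution, and controls a sham injection of the same volume. Both groups had free access to food, were housed singly and were killed on day 20. RNA of 3 control and 5 tumour-bearing mice was hybridised singly, and 1 further array per group held RNA pooled from 4 control or 5 tumour-bearing animals. The labels leave unsaid whether the pools contain the single mice, so the pools stand beside the comparison. The tissue is whole dissected hypothalamus, which mixes many nuclei and cell types.

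Neuropeptide Y is among the strongest appetite-stimulating peptides of the brain. In the arcuate nucleus it is made by neurons that also release AgRP and GABA. These neurons are active in fasting, are stimulated by ghrelin and are restrained by leptin and insulin. The peptide acts on receptors coupled to inhibitory G proteins: Y1 and Y5 are the receptors most tied to food intake, and Y2 sits largely on the NPY neurons themselves as an autoreceptor.

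The start regions of the ligand gene and of Npy5r are shown because they end at the first annotated start of the gene model. They are the 250 bases before the gene start, 5′ to 3′ on the coding strand, from the RefSeq annotation of GRCm38.p6. They lie at chr6:49822460-49822709 on the plus strand for Npy and chr8:66688095-66688344 on the minus strand for Npy5r. Capitals mark matches to the motifs named after the sequences.
Npy: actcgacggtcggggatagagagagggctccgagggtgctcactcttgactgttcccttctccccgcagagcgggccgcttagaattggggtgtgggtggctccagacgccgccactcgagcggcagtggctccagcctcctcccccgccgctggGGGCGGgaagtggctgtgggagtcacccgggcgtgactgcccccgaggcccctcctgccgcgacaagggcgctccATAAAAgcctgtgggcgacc
Npy5r: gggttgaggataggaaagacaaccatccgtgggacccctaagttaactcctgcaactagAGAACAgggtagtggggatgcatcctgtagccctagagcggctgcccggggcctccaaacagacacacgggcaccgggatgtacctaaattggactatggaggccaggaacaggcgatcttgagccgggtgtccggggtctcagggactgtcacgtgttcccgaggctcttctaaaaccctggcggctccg

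The Npy window held a TATA-like ATAAAA that began 20 bases before the start, a motif added to the search after the sequence was seen and present in 17% of 32851 windows of the same length. It also held a GC box, GGGCGG, found in 32.7% of windows. Its GC content was 69.2%, against 58.8% for Npy5r. The Npy5r window held AGAACA, a glucocorticoid receptor hexamer present in 16.1% of windows. A search of both strands for the CRE (TGACGTCA, 1.55% of windows), its core (TGACG, 17.8%), a FoxO site (TGTTTAC, 3.17%) and a STAT site (TTCNNNGAA, 7.02%) gave no match in the windows of any of the 4 members, which says only that these letters are not there. The windows of Npy1r and Npy2r lie inside the extent of their gene models, whose first annotated start is further upstream, and are not printed. Npy1r is the next gene after Npy5r on chromosome 8 and is read from the opposite strand.

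Npy was higher in every tumour-bearing mouse than in any control, but its difference did not pass the test across the array. Values are log2 levels made by the authors with RMA, so a step of 1 is a doubling. In controls 1, 2 and 3 the Npy level was 8.79, 8.63 and 8.32. In tumour-bearing mice 1 to 5 it was 9.45, 8.87, 9.32, 9.35 and 10.13. The groups did not overlap, with tumour-bearing mouse 2 only just above the highest control and mouse 5 well above the other tumour-bearing mice. The mean level was 8.58 ± 0.24 (SD, n = 3) without and 9.43 ± 0.45 (SD, n = 5) with a tumour. Against the control mean, single tumour-bearing mice lay between 1.22-fold (mouse 2) and 2.93-fold (mouse 5).

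The fitted Npy difference was 0.84 ± 0.23 SE on the log2 scale, 1.80-fold, with a 95% interval of 0.32 to 1.37 that is not adjusted for the number of genes (limma adjusted p = 0.284 over all 22837 tested probe sets). Of the 4 members 0 passed the adjusted threshold of 0.05, against 0.0771% of the 12978 tested genes that were called higher and 0% called lower. At an unadjusted p under 0.05 limma gave 1 member, Npy, against 10.3% of genes. Complete separation, with the 5 tumour-bearing mice higher than the 3 controls, was seen for 1 of the 4 members, again Npy, against 3.11% of tested genes. By the absolute size of the difference Npy ranked 31 of the 12978 genes, and by p it ranked 237. Npy also varied more within groups than most genes: its pooled SD was 0.40, against a median of 0.10, and 0.470% of genes had a larger one. In whole tissue, a change in the number of cells of a type and a change in RNA per cell cannot be told apart.

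**Figure D1:**
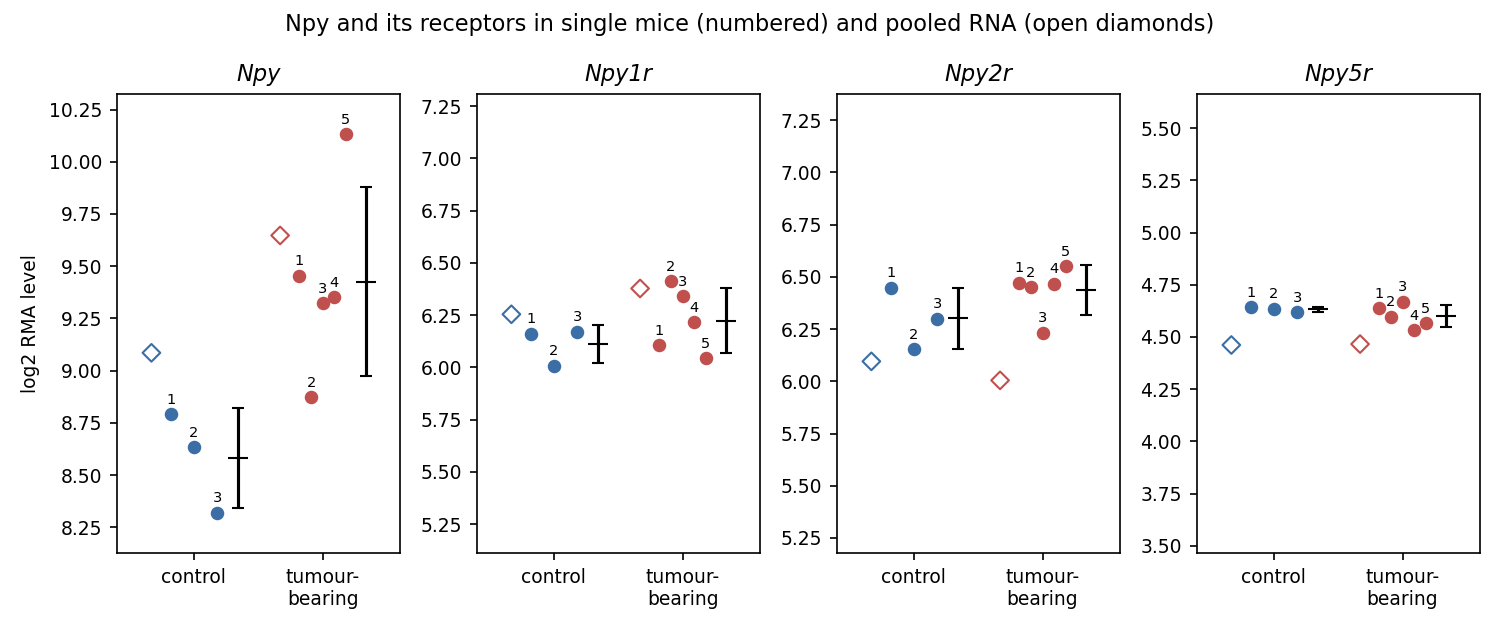
Log2 RMA level of each member in single mice (filled circles with the mouse number; blue, control; red, tumour-bearing) and in pooled RNA (open diamonds), with the mean and SD of each group as bars; each panel spans the same log2 range. Npy runs from 8.32 to 8.79 in single controls and from 8.87 to 10.13 in single tumour-bearing mice, whereas the groups overlap for the receptors.

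The pools gave the same direction for Npy, with a control value that lay inside the tumour-bearing range. The control pool stood at 9.09 and the tumour-bearing pool at 9.65, a difference of 0.56. The control pool thus lay above all 3 single controls and above tumour-bearing mouse 2. It exceeded the mean of the single controls by 0.50, and the tumour-bearing pool exceeded its single mice by 0.22. Pools stood apart from single arrays for many genes: the control pool was above all 3 single controls for 32% of tested genes, both pools lay below all 8 single arrays for 11.8%, and both lay above them for 13%. With the pools added as samples and pooled or single RNA as a block, a setting added once the values had been seen, the Npy difference was 0.79 ± 0.20 SE (limma adjusted p = 0.169).

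The Y1 receptor gene, Npy1r, did not differ between the groups beyond the spread of the mice. Its levels were 6.16, 6.01 and 6.17 in controls 1 to 3 and 6.11, 6.41, 6.34, 6.22 and 6.04 in tumour-bearing mice 1 to 5. The groups overlapped, with 3 of the 5 tumour-bearing mice above all controls. The difference was 0.11 ± 0.10 SE (95% interval -0.11 to 0.33, limma adjusted p = 0.752). Leaving out control 2 gave 0.059, and leaving out tumour-bearing mouse 2 gave 0.063. The order of the tumour-bearing mice was not that of Npy: mouse 5, the highest for the ligand, was the lowest for Npy1r, and mouse 2, the lowest for the ligand, was the highest. The pools lay at 6.25 and 6.38, a difference of 0.12.

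The Y2 receptor gene, Npy2r, which encodes the autoreceptor, also overlapped between the groups. Its levels were 6.45, 6.15 and 6.30 in controls 1 to 3. In tumour-bearing mice 1 to 5 they were 6.47, 6.45, 6.23, 6.47 and 6.55. Mouse 3 lay among the controls and the other 4 above them, mouse 2 by a margin smaller than the rounding. The difference was 0.13 ± 0.09 SE (95% interval -0.08 to 0.34, limma adjusted p = 0.662), 0.21 without control 1 and 0.061 without control 2. The pools went the other way, with a difference of -0.09, and both lay below all 8 single arrays.

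The Y5 receptor gene, Npy5r, had the smallest difference of the 4 members. All 8 mice lay between 4.53 and 4.67, close to but above the filter level of 4.32, with controls at 4.64, 4.64 and 4.62. Tumour-bearing mice 1 to 5 had 4.64, 4.60, 4.67, 4.53 and 4.57. The groups overlapped, and the difference was -0.03 ± 0.10 SE (95% interval -0.26 to 0.20, limma adjusted p = 0.946). It was -0.016 without tumour-bearing mouse 4 and -0.049 without mouse 3. The pools stood at 4.46 and 4.47, below all single mice. The intervals of all 3 receptor genes include 0.

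**Figure D2:**
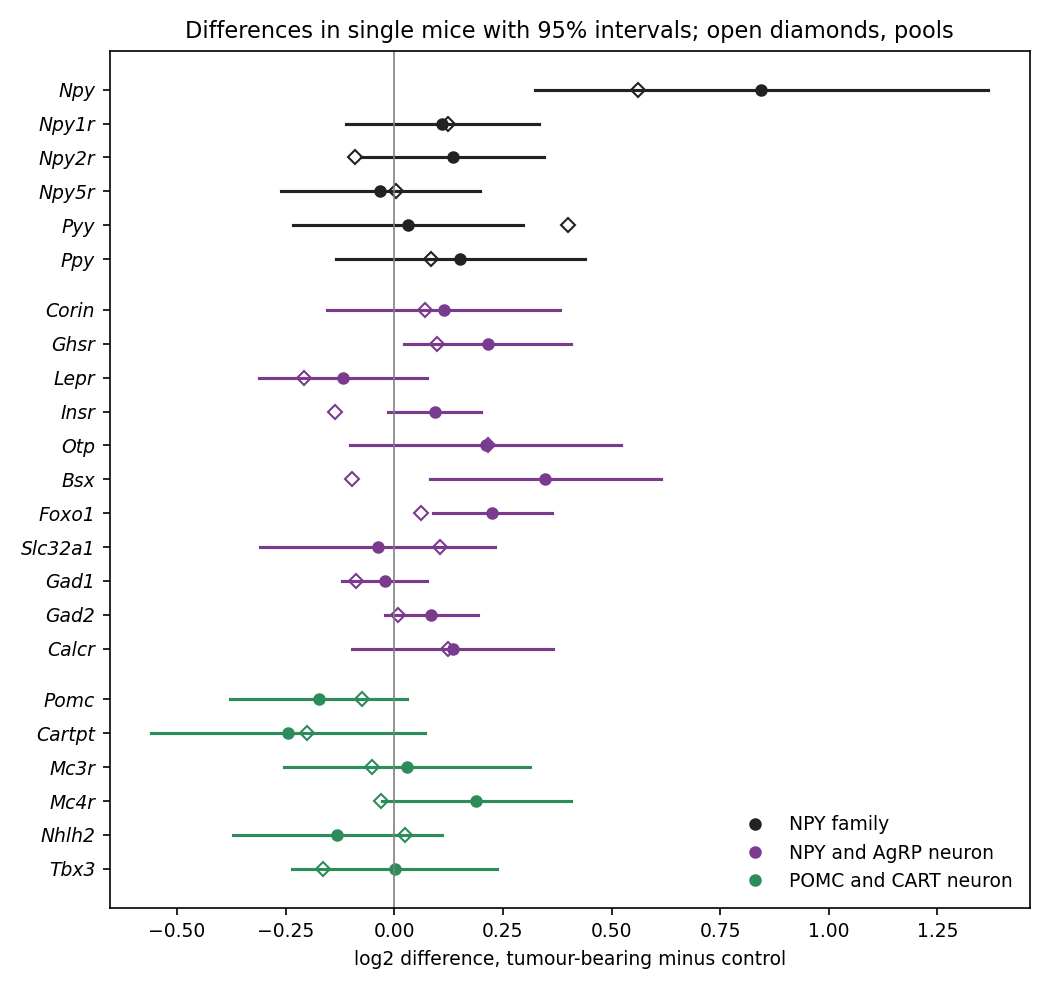
Log2 difference, tumour-bearing minus control, for genes of the NPY family, the NPY and AgRP neuron and the POMC and CART neuron; filled circles and lines are the single mice with unadjusted 95% intervals, and open diamonds are the difference between the 2 pools. In single mice Npy stands at 0.84 and the other genes lie between -0.24 and 0.35.

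Of the other genes of the NPY family, Pyy and Ppy lay close to the filter level and the receptor genes Npy4r and Npy6r well below it. Pyy, peptide YY of the gut, differed by 0.03 ± 0.12 SE (limma adjusted p = 0.956) and by 0.40 between the pools. Ppy, pancreatic polypeptide, differed by 0.15 ± 0.13 SE (limma adjusted p = 0.731). Npy4r and Npy6r were below it on all 8 single arrays and were not tested: Npy4r ranged from 2.79 to 3.42 and Npy6r from 2.60 to 3.07. Of the 8 family genes with a probe set of their own 6 were therefore tested, with 0 called, 5 differences above 0 and 1 below.

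Other genes of the NPY and AgRP neuron had smaller differences than Npy. Of 11 tested, 0 were called, 8 differences were above 0 and 3 below, and the median was 0.11 against -0.01 over all tested genes. Agrp and Ucp2, which lacked a probe set of their own, are not analysed here. Foxo1, a transcription factor that leptin and insulin signalling holds out of the nucleus and that activates Npy and Agrp, was the 1 gene without overlap. Its levels were 7.41, 7.20 and 7.18 in controls 1 to 3. In tumour-bearing mice they lay between 7.46 and 7.52, above all controls, as for 3.11% of tested genes. The Foxo1 difference was 0.23 ± 0.06 SE (limma adjusted p = 0.277), and 0.06 between the pools.

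Bsx, a homeobox factor of the same neurons needed for normal Npy expression, was 5.88, 5.89 and 5.94 in controls. It was 5.89 in tumour-bearing mouse 1 and 6.36, 6.37, 6.22 and 6.40 in mice 2 to 5. Mouse 1 thus lay with the controls and the other 4 above them, for a difference of 0.35 ± 0.12 SE (limma adjusted p = 0.364); the pools differed by -0.10. Ghsr, the ghrelin receptor gene, differed by 0.22 ± 0.09 SE (limma adjusted p = 0.418), with 4 of 5 tumour-bearing mice above all controls. The leptin receptor gene Lepr differed by -0.12 and the insulin receptor gene Insr by 0.09. The differences were 0.11 for Corin, a protease gene, 0.13 for Calcr, the calcitonin receptor, and 0.21 for Otp, a hypothalamic homeobox gene. The GABA genes stayed close to 0: Gad1 and Gad2, which encode the synthesising enzymes, differed by -0.02 and 0.08, and the vesicular transporter Slc32a1 by -0.04.

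Of the genes that make and break down the peptide, Dpp4 stood apart. It encodes dipeptidyl peptidase 4, which trims NPY at its amino end and turns a Y1 agonist into one preferring Y2 and Y5. Dpp4 was 5.68, 5.41 and 5.76 in controls 1 to 3. It was 4.82, 4.86, 5.30, 5.22 and 4.66 in tumour-bearing mice 1 to 5. All 5 lay below all 3 controls, as for 5.19% of tested genes. The order of the tumour-bearing mice did not mirror that of Npy: mouse 5 had the most Npy and the least Dpp4, but mouse 2, with the least Npy, had less Dpp4 than mice 3 and 4. The difference was -0.65 ± 0.17 SE (limma adjusted p = 0.269), and -0.71 between the pools. The rest of the list was nearer 0: Pcsk1, a prohormone convertase gene, differed by -0.11, Mme, which encodes neprilysin, by -0.11, and Pcsk1n by 0.08, with tumour-bearing mouse 5 at 11.16 above the other 4 for Pcsk1n. Of 7 tested genes 0 were called, 3 were above 0 and 4 below, with a median of -0.02.

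Genes that couple Y receptors to the cell varied by small amounts. Of 16 tested genes for inhibitory G proteins, potassium channels, adenylyl cyclases and related factors 0 were called, with a median difference of 0.01 and a range of -0.21 to 0.10. Adcy8, an adenylyl cyclase gene, differed by -0.21 ± 0.05 SE (limma adjusted p = 0.217). Kcnj6, a G protein-gated potassium channel gene, differed by -0.11 ± 0.06 SE (limma adjusted p = 0.556). For both, all 5 tumour-bearing mice lay below all 3 controls, as for 5.19% of tested genes. The margin was narrow for Kcnj6, with tumour-bearing mouse 2 at 6.513 and control 2 at 6.518.

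Signalling genes of the hormonal inputs of NPY neurons were compared by their RNA level in the whole tissue. No hormone level was used here, and the part of these inputs in the Npy difference was not tested. Of 13 tested leptin and insulin genes 0 were called, with a median of 0.02; Socs3, a feedback inhibitor of the leptin receptor, was the furthest from 0, at 0.44 ± 0.16 SE (limma adjusted p = 0.394), with 2 controls and 1 tumour-bearing mouse below the filter level. Of 6 tested ghrelin and energy-sensing genes 0 were called, with a median of -0.01. Cpt1a, which admits fatty acids to mitochondria, differed by -0.13, with all 5 tumour-bearing mice below all 3 controls, as for 5.19% of tested genes. Glucocorticoids are known to raise Npy. Of 8 tested genes of that input 0 were called, and the median was 0.10. The glucocorticoid-induced genes Zbtb16 and Tsc22d3 were above all controls in 5 of 5 tumour-bearing mice, by 0.43 ± 0.11 SE (limma adjusted p = 0.249) and 0.36 ± 0.06 SE (limma adjusted p = 0.116). Of all tested genes 3.11% were separated in this direction. Fkbp5, another such gene, differed by 0.32 ± 0.15 SE (limma adjusted p = 0.496). For Fkbp5 4 tumour-bearing mice lay above all controls and mouse 3 just below them. Sgk1 and Per1, of the same list, differed by 0.16 and 0.05, with overlapping groups. Hsd11b1, which regenerates active glucocorticoid within cells, was below all controls in 5 of 5, by -0.47 ± 0.12 SE (limma adjusted p = 0.277). Separation in that direction was seen for 5.19% of tested genes.

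The opposing satiety neurons of the arcuate nucleus were set beside Npy. Pomc, the precursor of alpha-MSH, was 5.71, 5.91 and 5.76 in controls 1 to 3. It was 5.79 in tumour-bearing mouse 1 and between 5.55 and 5.62 in the other 4, for a difference of -0.17 ± 0.09 SE (limma adjusted p = 0.542). Cartpt, which encodes the CART peptide, differed by -0.24 ± 0.14 SE with overlapping groups (limma adjusted p = 0.591). The Mc4r and Mc3r receptor genes differed by 0.19 and 0.03, and the transcription factor genes Nhlh2 and Tbx3 by -0.13 and 0.00. Of these 6 tested genes 0 were called, and the median was -0.06.

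Markers of the dissected tissue differed between the same groups of mice. Of 14 tested hypothalamus genes 13 had a positive difference, against 5911 of all 12978, and 0 were called. For 4 of them (Oxt, Avp, Trh and Tac2) the tumour-bearing mice lay above all controls, against 3.11% of tested genes, and the median was 0.25 against -0.01 over all tested genes. The mean centred level of that list ran from -0.25 to -0.11 in single controls and from -0.06 to 0.22 in tumour-bearing mice. Mouse 2 was the lowest and mouse 5 the highest of the tumour-bearing mice, as for Npy, but the order otherwise differed: tumour-bearing mouse 1 was next to lowest on the list and next to highest for Npy, and control 1 was the lowest control on the list and the highest for Npy. Of 7 tested midbrain dopamine genes 7 had a negative difference, against 7067 of all 12978, and 0 were called, with a median of -0.78. For 3 of them (Slc6a3, Th and Aldh1a1) the tumour-bearing mice lay below all controls, against 5.19% of tested genes. The midbrain list ran from 0.37 to 0.62 in controls and from -1.08 to 0.44 in tumour-bearing mice, with mouse 2 the highest of these and its dopamine transporter gene Slc6a3 at 9.67, just below the control values of 9.71 to 9.91. Without mouse 2 the Npy difference was 0.98 ± 0.20 SE (limma adjusted p = 0.130). As mouse 2 had the lowest Npy of the tumour-bearing mice, leaving it out raises the difference whatever its midbrain level. Without mouse 5, which had the highest Npy, the difference was 0.67 ± 0.15 SE (limma adjusted p = 0.325). Between the pools, where Npy differed by 0.56, the midbrain list went from 0.24 (control) to 0.19 (tumour-bearing), with a median difference of -0.13. The hypothalamus list rose between them from -0.13 to 0.03, with a median difference of 0.12. Of 6 tested oligodendrocyte genes, markers of the myelin-forming glia, 6 had a negative difference and 0 were called, with a median of -0.51. For 3 of them (Mog, Opalin and Ugt8a) the tumour-bearing mice lay below all controls, again against 5.19% of tested genes. That list ran from 0.26 to 0.34 in controls and from -0.52 to 0.22 in tumour-bearing mice, with mouse 2 the highest and mouse 5 the lowest of these. Between the pools the oligodendrocyte list fell from 0.35 (control) to 0.02 (tumour-bearing), with a median difference of -0.30. The part of tissue makeup in the Npy difference was not tested.

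**Figure D3:**
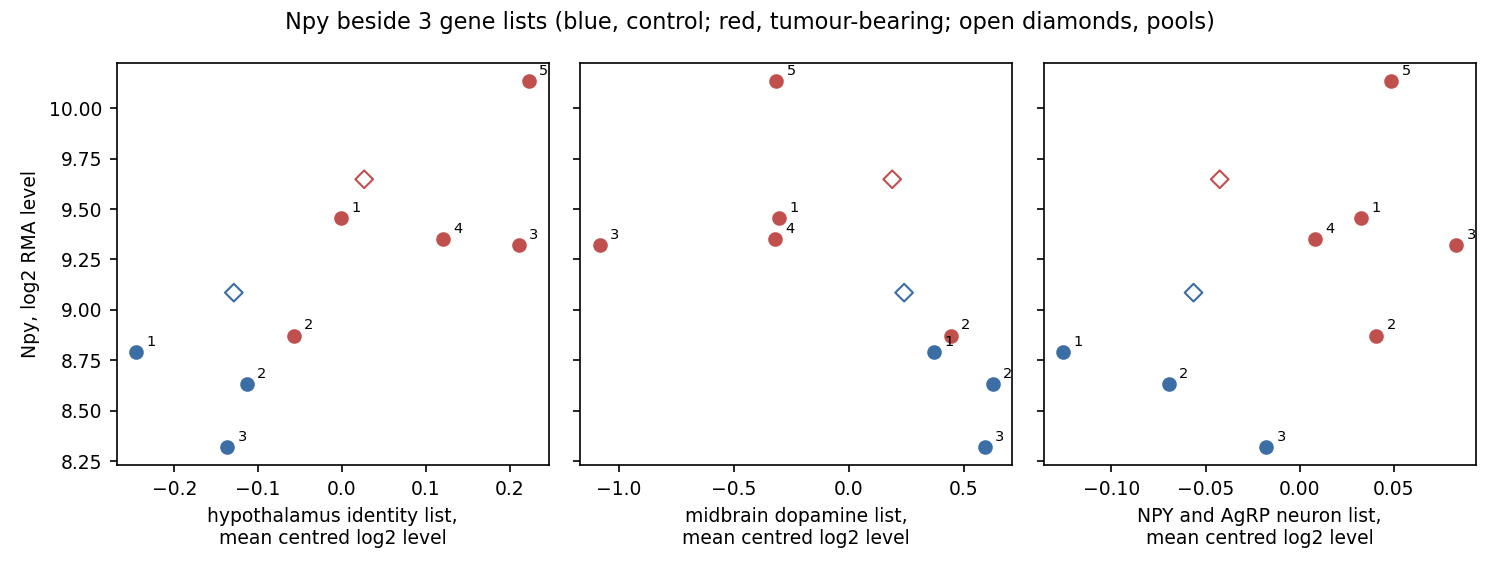
Npy level on the log2 scale (vertical) against the mean centred log2 level of 3 gene lists (horizontal), 1 point per single mouse, numbered, and open diamonds for the pools; blue is control and red tumour-bearing. Tumour-bearing mouse 2, at 8.87 for Npy, lies within the range of the single controls on the midbrain list, and mouse 5, at 10.13, is the highest on the hypothalamus list.

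A list of interneuron and brainstem genes, for neurons that can hold NPY outside the arcuate nucleus, went both ways, with 3 differences above 0, 3 below and 0 of 6 tested genes called. Sst, somatostatin, differed by 0.23 ± 0.09 SE (limma adjusted p = 0.413) and Lhx6, a factor of cortical and striatal interneurons, by 0.37 ± 0.15 SE (limma adjusted p = 0.439). Pvalb, parvalbumin, whose interneurons are largely a separate class from those with NPY, was lower than all controls in 5 of 5 tumour-bearing mice, by -0.64 ± 0.13 SE (limma adjusted p = 0.189). Of all tested genes 5.19% were separated in this direction. Dbh and Pnmt, which mark catecholamine neurons of the brainstem, were below the filter in both groups. The pituitary list, 3 tested genes with 0 called, ran from -1.16 to -0.44 in controls and from -0.67 to 1.91 in tumour-bearing mice. It was highest in tumour-bearing mice 3 and 4, where Gh, growth hormone, was 10.45 and 10.48 against 4.21 to 5.51 in the other single mice. Npy was 9.32 and 9.35 in these 2 mice, between the other tumour-bearing values, and its difference without them was 0.90 ± 0.29 SE (limma adjusted p = 0.477). Between the pools the pituitary list went from -0.38 (control) to 1.57 (tumour-bearing), and Gh from 4.37 to 9.82.

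The 5 tested genes whose profile over the 8 single mice was most like that of Npy were Cyp4f15, Phyhd1, Fam107a, Etnppl and Gpr6. Likeness was the root-mean-square difference of log2 levels, each centred on its mean: it was 0.21, 0.22, 0.24, 0.25 and 0.28 for these genes, against a median of 0.54 over the 12977 genes compared and 0.53 for a flat line. Cyp4f15, a cytochrome P450 gene, went from 6.14 ± 0.07 (SD, n = 3) to 7.01 ± 0.32 (SD, n = 5). Phyhd1, a dioxygenase gene, went from 7.95 ± 0.18 (SD, n = 3) to 8.81 ± 0.37 (SD, n = 5). As the genes were chosen for this profile, their levels describe the choice and are not tested. None of the receptor genes was among them. As the measure is not scaled and their levels varied little, this says nothing on whether they followed Npy.

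**Figure D4:**
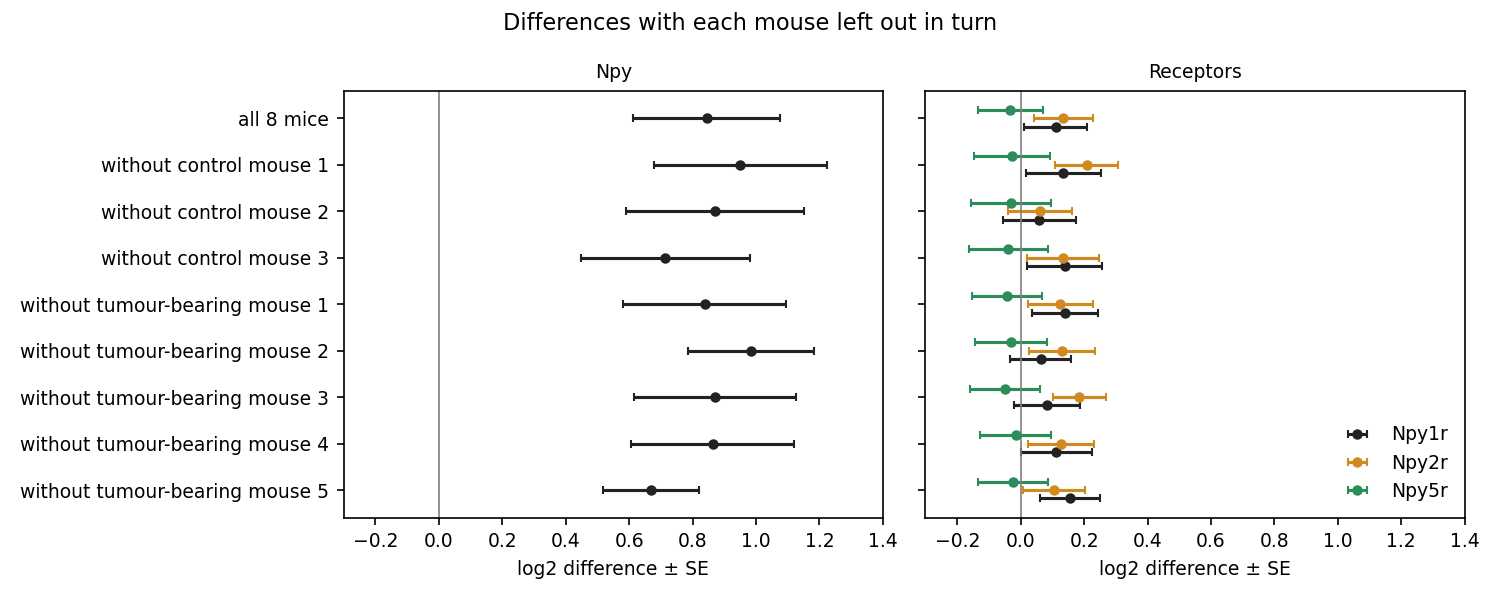
Log2 difference, tumour-bearing minus control, with its SE, for Npy (left) and the 3 receptor genes (right), with all 8 mice and with each mouse left out in turn. Npy stays between 0.67 and 0.98, and Npy5r between -0.049 and -0.016.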

How the data were processed

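Values are the authors' deposited log2 expression levels, which RMA produced according to the labels (per the submitters' processing notes). Its version, the probe set definition and whether all 10 arrays were processed together are not given in the sources used here. This method gives arrays a common distribution and compresses folds. The log2 scale was inferred from the range of values. A platform annotation paired 21218 of 35556 probe sets with 1 gene; RefSeq (GRCm38.p6) matched 21185 of these by gene number and changed 0 symbols.

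Probe sets above 20 on the linear scale (log2 4.32) on at least 3 of the 8 single arrays were tested, 22837 in all, with limma 3.58.1 in R 4.3.3 (lmFit and trended eBayes, with statmod 1.5.0 in a robust alternative), Benjamini-Hochberg adjustment over all of them and a threshold of 0.05. The test was checked on simulated data. The number of arrays limits precision. Members, lists and tests were chosen with earlier results of these data known. Named are the members, the genes of 3 lists (NPY family, NPY and AgRP neuron, POMC and CART neuron), and the 5 most like Npy. Of other lists, up to 4 genes with the largest difference are named. Tac2, Sgk1, Per1, Dbh and Pnmt, outside this rule, were named after their values were seen. Alternatives were the filter, variance model, array weights, normalization, replicate block, pools as samples, probe sets per gene, features tested and leaving out mice. Lists not otherwise described were serotonin neurons, thalamus, striatum, cortex and hippocampus, choroid plexus, astrocytes and tanycytes, microglia and endothelium. Each had 0 called genes, against 0.0771% of all tested genes, so this does not show them unchanged. Their median differences ran from -0.95 (serotonin neurons, 3 tested genes) to 0.10 (choroid plexus). For microglia 4 of 5 tested genes were below 0. Gata3, Aqp4 and Tmem119 lay below all controls in every tumour-bearing mouse, as for 5.19% of tested genes. Tbr1 and Rgs9 lay above them, as for 3.11%. Figures used matplotlib 3.10.9.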

Additional observations from a re-analysis of the deposited data

Results flagged for a closer look

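In groups of 5 mice a value was marked where its gap to the nearest other mouse exceeded 0.71 of the group's range, a limit that chance passes in about 1 group in 20. Of 95 genes examined 5 were marked, and none was a member. Tumour-bearing mouse 1 was the highest for Pomc, at 5.79 against 5.62 for the next mouse, and for the striatal gene Ppp1r1b, at 7.47 against 5.86. Mouse 5 was the highest for Pcsk1n, at 11.16 against 10.92, and the lowest for the choroid plexus gene Otx2, at 4.26 against 4.91. Mouse 3 was the highest for Kcnj5, a potassium channel gene, at 6.37 against 6.19.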

How the results depend on the processing

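Of 21 alternatives per member, all kept the direction and the side of the threshold for Npy, Npy1r and Npy2r; Npy5r turned from -0.03 to 0.0014 with the replicate number as a block. The Npy difference ranged from 0.63 (replicate block) to 0.98, and its limma adjusted p from 0.0949 to 0.663. With single mice left out the ranges were 0.67 to 0.98 for Npy, 0.059 to 0.16 for Npy1r, 0.061 to 0.21 for Npy2r and -0.049 to -0.016 for Npy5r. The numbers shared by control and tumour-bearing mice showed no sign of pairing: the correlations of their deviations from the group means were -0.0020, 0.0084 and 0.0089. Mice with unlike numbers gave -0.041 to 0.030. With so few mice the check cannot exclude pairing. The count of called genes moved more than the members. It was 10 as reported, 3 without a filter, 3 without the intensity trend, 17 with array weights, 0 with the replicate block (570 at an unadjusted p under 0.05 by limma), 77 with probe sets averaged per gene, 68 with testing limited to single-gene probe sets (both test fewer features), 25 with pools added and blocked, 0 without tumour-bearing mice 3 and 4 (1071 at an unadjusted p under 0.05), and 0 to 53 with single mice left out, 0 without control 3 (1144 at an unadjusted p under 0.05) and 53 without tumour-bearing mouse 2. As reported 0 genes were called lower (845 lower at an unadjusted p under 0.05 by limma), but 37 were with probe sets averaged per gene, 29 with single-gene probe sets, 29 without tumour-bearing mouse 2, 5 with pools added and blocked, 3 without control 1, 2 with array weights and 1 with pools added unblocked. The dim signal of Npy5r, Pyy and Ppy limits what can be seen for them.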
